A study of Mus musculus with 35 samples.

Results

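The neutrophil-attracting CXC chemokines and the receptors and growth factor they act with were followed here across skin wounds of WT and Col5a1CKO mice. The members were 8 genes, chosen by symbol: the ligands Cxcl1, Cxcl2, Cxcl3, Cxcl5 and Ppbp, their receptor Cxcr2, the granulocyte growth factor Csf3, and its receptor Csf3r. All 8 were found among the 22830 gene symbols of each of the 2 deposited tables of counts. Where several RefSeq transcripts carried a symbol, the row with the largest total was used, which touched only Csf3r.

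The wounds were full-thickness excisions on the back of adult mice of both sexes, and RNA came from a punch of the wound centre. Col5a1CKO mice carried Col1a2CreERT and Col5a1 fl/fl, so the deletion was limited to cells in which this collagen enhancer is active, mainly fibroblasts, and was induced by tamoxifen around the time of wounding. WT mice were Cre-negative Col5a1 fl/fl littermates that received the same tamoxifen and wounding, so floxed alleles and tamoxifen were shared by all 8 groups. The first table held day 14 wounds of 7 WT, 7 Col5a1CKO and 3 fibroblast-injected Col5a1CKO mice, the last with cultured WT skin fibroblasts placed in the dermis of the wound bed, and day 19 wounds of 3 mice of each genotype. The second held 4 WT wounds with vehicle, 4 Col5a1CKO wounds with vehicle and 4 Col5a1CKO wounds with cilengitide, an inhibitor of the integrin αvβ3, all at day 14 and with daily injections. For the Col5a1CKO wounds at day 19 the treatment label names WT fibroblasts, whereas the titles and column headers do not. The titles were followed. The paper describes the groups of 7 at day 14 as given vehicle, whereas their treatment label names only wounding.

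Chemokines are small secreted proteins that steer leukocytes along gradients. The ligands studied here share the Glu-Leu-Arg motif ahead of their first cysteines and bind CXCR2, the receptor by which circulating neutrophils are drawn into injured skin. G-CSF, the product of Csf3, drives the formation of neutrophils in the bone marrow and their release into blood, and its receptor is carried by cells of the neutrophil lineage. Macrophages, keratinocytes, fibroblasts and neutrophils themselves can make several of the ligands, whereas Ppbp is best known from platelets and their precursors.

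The 5 ligand genes lie within 146.6 kb of each other on the plus strand of chromosome 5, between positions 91188325 and 91334935 of build NCBI37/mm9, in the order Cxcl5, Ppbp, Cxcl3, Cxcl1, Cxcl2. Cxcr2 lies on chromosome 1 from 74200563 to 74207812, Csf3r on chromosome 4 from 125701794 to 125722219, and Csf3 on chromosome 11 from 98562577 to 98564943, all on the plus strand. The 100 bases ahead of the RefSeq start sites of Cxcl1, Cxcl2 and Cxcl3 are shown because the promoters of these ligands share letters. Capitals mark a κB-type motif, GGAATTTCC, followed by a TATA-type motif, ATAAAAGG. The sequences are from build GRCm38.p6, at chr5:90891145-90891244, chr5:90903799-90903898 and chr5:90786001-90786100, plus strand, and the motif letters were chosen after these promoters were read.
Cxcl1: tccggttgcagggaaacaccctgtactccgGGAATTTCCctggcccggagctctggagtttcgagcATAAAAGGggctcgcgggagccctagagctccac
Cxcl2: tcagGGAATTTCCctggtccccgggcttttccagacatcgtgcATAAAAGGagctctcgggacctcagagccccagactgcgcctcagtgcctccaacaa
Cxcl3: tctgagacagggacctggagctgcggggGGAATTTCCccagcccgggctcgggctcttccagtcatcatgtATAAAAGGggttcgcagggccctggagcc
The κB-type letters end 62 bases ahead of the start in Cxcl1, 88 in Cxcl2 and 64 in Cxcl3. On either strand, the κB-type letters were in 0.317% and the TATA-type letters in 1.76% of 32851 RefSeq promoter windows of 300 bases, and the motifs do not overlap in the 3 promoters. RefSeq promoters were at hand for 6 of the 8 members. Ppbp held only the TATA-type letters, on the reverse strand, and Cxcr2 and Csf3r held neither, which says nothing about the factors that act there.

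Depth ranged from 15043531 to 35700337 counts for the wounds of the first table, and from 51211600 to 68266760 for those of the second. Levels are given as CPM, counts scaled to a common library total, after TMM normalization within a table. Col5a1, the targeted gene, had a median of 846 CPM in WT and 368 CPM in Col5a1CKO wounds at day 14 with overlapping groups, and its difference was not called at day 14, at day 19 or with vehicle (log2 fold change -1.43, -1.69 and -1.17, adjusted p = 0.0757, 0.272 and 0.232). By the balance of GC-rich against GC-poor genes, the wounds of the first table formed 2 sets separated by 1.54 in log2 units, and all fibroblast and day 19 wounds were in the upper set. Of the day 14 wounds without fibroblasts, 4 WT (a to d) and 5 Col5a1CKO (a to e) fell in the lower set. The remaining WT wounds e to g carried RNA of Y-linked genes and the remaining Col5a1CKO wounds f and g carried Xist RNA, so sex and genotype cannot be told apart in the upper set. Col5a1CKO vehicle replicate 2 had neither kind of RNA. No 2 wounds of a group agreed within sampling noise. The study's methods describe separate animals as replicates.

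At day 14, 6 of the 8 genes were higher in Col5a1CKO than in WT wounds: Cxcl1, Cxcl5, Ppbp, Cxcr2, Csf3 and Csf3r. A gene was called at an adjusted p under 0.05 and a change of at least 2-fold, and 5.57% of the 14367 genes tested were called higher. The median log2 fold change of the 8 genes was 3.78, beside -0.03 over all genes tested. Cxcl2 and Cxcl3 also had higher medians in Col5a1CKO wounds but did not pass.

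Cxcl5, the ligand best known from epithelial and stromal cells, changed most. Its lowest, median and highest levels were 0.137, 3.35 and 25.5 CPM in the 7 WT wounds and 11.2, 268 and 888 CPM in the 7 Col5a1CKO wounds. The groups overlapped only through Col5a1CKO replicate g at 11.2 CPM and WT replicate b at 25.5 CPM, and the next lowest Col5a1CKO wound had 166 CPM. The log2 fold change was 6.03 (SE 1.16, adjusted p = 0.00801), or 65.2-fold.

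Cxcl1, a major CXCR2 ligand induced by IL-1 and IL-17, ranged from 0.138 to 41.6 CPM around a median of 2.46 in WT wounds and from 15.0 to 329 CPM around a median of 89.8 in Col5a1CKO wounds. WT replicates c and d, at 41.6 and 17.9 CPM, reached the range of the lowest Col5a1CKO wounds. The log2 fold change was 4.05 (SE 1.13, adjusted p = 0.0349). Ppbp, which encodes the precursor of CXCL7, had 0.129, 0.756 and 6.33 CPM as its lowest, median and highest WT levels and 7.05, 9.20 and 209 CPM in Col5a1CKO wounds. Its groups did not overlap, by a margin of 6.33 against 7.05 CPM, as held for 2.23% of the 14252 genes averaging 1 CPM or more, and its log2 fold change was 4.88 (SE 1.04, adjusted p = 0.0113).

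Cxcl2 and Cxcl3, ligands made in large amounts by activated macrophages and neutrophils, set WT replicates c and d apart from the other WT wounds. Cxcl2 had 1123 CPM in WT replicate c and 552 CPM in WT replicate d, whereas the other 5 WT wounds had 1.04 to 85.4 CPM. In Col5a1CKO wounds Cxcl2 ranged from 70.4 to 1947 CPM with a median of 430. The difference was not called (log2 fold change 1.61, SE 1.35, adjusted p = 0.465). Cxcl3 had 152 and 78.5 CPM in WT replicates c and d, 0.688 to 7.49 CPM in the other WT wounds, and 64.4 to 1002 CPM with a median of 204 in Col5a1CKO wounds. Its log2 fold change of 3.51 (SE 1.28, adjusted p = 0.0943) was not called, and was called without WT replicate c (4.73, adjusted p = 0.0369).

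WT replicates c and d were also the only day 14 WT wounds with Xist RNA. Il1b, which encodes the inflammatory cytokine IL-1β, ranged from 8.04 to 2237 CPM in WT and from 290.5 to 5171 CPM in Col5a1CKO wounds at this day, with its highest WT level in replicate c, and was not called (log2 fold change 1.56, SE 1.20, adjusted p = 0.427). Col5a1CKO replicates e, f and g, with Xist RNA, had 101, 430 and 70.4 CPM of Cxcl2, beside a group median of 430 CPM. For Cxcl3 they had 64.4, 137 and 77.8 CPM, beside a group median of 204 CPM. In WT vehicle wounds, replicates 1 and 3 had Xist RNA and replicate 2, without it, had the highest Cxcl2 at 40.2 CPM. Any part of sex in these levels was not tested.

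**Figure D1:**
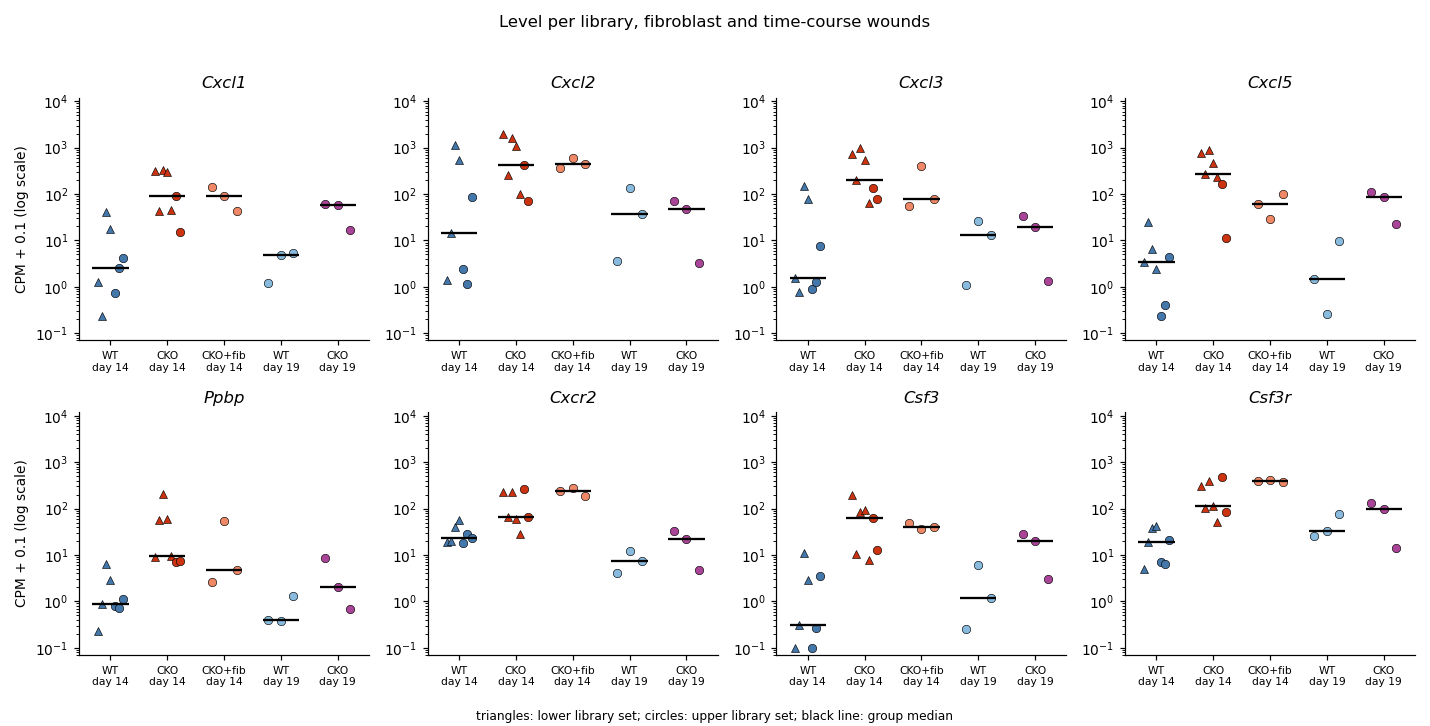
Level of each of the 8 genes in every wound of the first table, as CPM + 0.1 on a log axis, by group (WT and CKO at day 14, CKO with WT fibroblasts at day 14, WT and CKO at day 19). Triangles and circles are the lower and upper library set and black lines are group medians. WT wounds at day 14 spread widely for Cxcl2 (1.04 to 1123 CPM), and Csf3r at day 14 is higher in every CKO wound than in every WT wound.

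The receptors showed the same direction with less spread. Cxcr2 had 17.7, 23.3 and 57.7 CPM as its lowest, median and highest WT levels and 27.9, 64.2 and 268 CPM in Col5a1CKO wounds. The groups overlapped between WT replicates c and d and Col5a1CKO replicate e, and the log2 fold change was 2.21 (SE 0.50, adjusted p = 0.0147). Csf3r, the G-CSF receptor, had 4.95, 18.5 and 42.2 CPM in WT and 51.6, 112 and 485 CPM in Col5a1CKO wounds. Its groups did not overlap either, and its log2 fold change of 3.50 (SE 0.66, adjusted p = 0.00693) was the most precise among members changed by more than 3 on this scale.

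Csf3 was close to undetected in several WT wounds. WT replicates a and e had 0 counts, which allow up to 0.187 and 0.114 CPM (3 counts, counting error only), the WT median was 0.206 CPM, and the highest was 11.1 CPM in replicate c. Col5a1CKO wounds had 7.50 to 195 CPM with a median of 62.3. The log2 fold change was 4.75 (SE 1.29, adjusted p = 0.0310).

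The calls of Cxcl1 and Csf3 were close to the threshold. Cxcl1 was not called without WT replicate a, e, f or g or without Col5a1CKO replicate a, c or f, and Csf3 was not called without WT replicate d, f or g or without Col5a1CKO replicate a, c or f, although the log2 fold changes stayed between 3.78 and 4.82 in these fits. Over all genes, 3.39% to 6.37% were called higher with 1 wound left out. Within the lower library set (4 WT and 5 Col5a1CKO wounds) log2 fold changes were 1.24 to 5.80 and only Cxcl5 was called, beside 3.68% of all genes called higher. Within the upper set (3 WT and 2 Col5a1CKO wounds) they were 2.96 to 5.90 and only Ppbp was called, beside 8.81% of all genes.

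Markers of neutrophils, the main carriers of both receptors, were read beside these genes. The summed level of 14 neutrophil markers was between 1204 and 9650 CPM in WT and between 2055 and 23390 CPM in Col5a1CKO wounds at day 14. This sum was carried largely by S100a8 and S100a9, with means of 1458 and 2127 CPM in WT and 2762 and 4604 CPM in Col5a1CKO wounds. Of the 14 markers, 13 were tested, and all 13 had positive log2 fold changes (median 2.55). The 3 called higher were Ltf, Mmp8 and Ngp, which encode granule proteins. Mmp8, neutrophil collagenase, had between 0.303 and 15.9 CPM in WT and between 20.4 and 383 CPM in Col5a1CKO wounds. The precursor-stage marker Elane was at 0 in all 7 WT wounds and at most 1.71 CPM in Col5a1CKO wounds, Mpo was at most 6.46 CPM, and Ly6g was not analysed here. The 8 macrophage markers summed to between 344 and 1132 CPM in WT and between 1062 and 2360 CPM in Col5a1CKO wounds, with 3 called higher, Csf1r, Fcgr1 and Cd68. Of the 6 platelet markers, 3 were tested and none was called, and they summed to 62.3 to 183 CPM and 87.2 to 404 CPM. In bulk RNA, more cells of a type cannot be told apart from more RNA per cell.

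Keratinocyte RNA was lower in most Col5a1CKO wounds but was not called. The 8 keratinocyte markers summed to 37480 to 159900 CPM in WT wounds and 37.5 to 71760 CPM in Col5a1CKO wounds, and Krt14, a basal keratin expected in skin, was as low as 9.35 CPM in the latter. None of the 8 was called at day 14, with 0 positive log2 fold changes and a median of -1.58. Of the other lists, 3 of 4 endothelial markers and 1 of 6 fibroblast markers, Pdgfra, were called higher, and T cell, mast cell and skeletal muscle markers had no calls. The part of cell makeup in the chemokine differences was not tested.

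The rest of the pathway was read from lists chosen for this report. Of 17 upstream cytokines and receptors, 14 were tested at day 14 and 4 were called higher, with a median log2 fold change of 1.55. They included Il6 (7.70, SE 1.21, adjusted p = 0.00422), Il17a (4.88, SE 1.33, adjusted p = 0.0312) and Il1r1 (2.35, SE 0.35, adjusted p = 0.00369). IL-17A and IL-1 are known inducers of Cxcl1, Cxcl5 and Csf3 in stromal and epithelial cells. Of 13 genes of NF-κB signalling and of the decay of these mRNAs, 4 were called higher, among them Tnfaip3, Nfkbiz and Nfkbia, which encode feedback and modulating proteins of NF-κB. Of 10 genes of neutrophil adhesion, 7 were called higher, including Itgam and Itgb2, the chains of the integrin Mac-1, and Selp, the endothelial P-selectin.

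Of 8 colony-stimulating factors, receptors and granulocyte regulators beside Csf3 and Csf3r, 5 were tested and 4 were called higher, including Csf2rb2, Csf1r and Csf2rb. Of 17 other CXC chemokines and receptors, 13 were tested, 11 had positive log2 fold changes (median 0.80) and 1 was called higher, the scavenging receptor Ackr1 (log2 fold change 1.61, SE 0.41, adjusted p = 0.0225).

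At day 19, none of the 8 genes was called between 3 Col5a1CKO and 3 WT wounds, where 0.0198% of 15135 genes were called higher. At an unadjusted p under 0.05 there were 2, Cxcl1 and Cxcl5, and DESeq2 called the same 2 genes beside 4.43% of all genes. WT replicate a carried RNA of Y-linked genes and all other day 19 wounds carried Xist RNA. Sex was thus not balanced between these groups, and its part was not tested. Cxcl1 had 1.10, 4.84 and 5.26 CPM in the WT wounds and 59.6, 57.6 and 17.0 CPM in the Col5a1CKO wounds. Cxcl5 had 1.36, 0.154 and 9.59 CPM in WT and 113, 87.4 and 22.3 CPM in Col5a1CKO wounds. For both ligands the genotypes did not overlap, but 16.8% of the 14357 genes averaging 1 CPM or more separated in this direction, so 2 of 8 is not far from the share over all genes. The log2 fold change was 3.67 for Cxcl1 (SE 0.77, adjusted p = 0.114) and 4.37 for Cxcl5 (SE 1.45, adjusted p = 0.163).

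Cxcl2 and Cxcl3 did not share this separation. Cxcl2 had 3.52, 136 and 36.6 CPM in the WT wounds and 71.5, 48.2 and 3.15 CPM in the Col5a1CKO wounds, with a log2 fold change of -0.38 (SE 1.39, adjusted p = 0.882). Cxcl3 had 1.02, 26.6 and 12.7 CPM in WT and 33.2, 19.4 and 1.26 CPM in Col5a1CKO wounds. Both groups spanned a wide range for each of these ligands, and neither was called.

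The remaining members overlapped between genotypes at day 19, and none of the genes in the pathway and cell type lists was called then, with a median log2 fold change of 0.77 over 12 neutrophil markers and 0.38 over 13 upstream cytokines and receptors. Csf3 had 0.151, 5.84 and 1.08 CPM in WT and 27.7, 20.2 and 2.91 CPM in Col5a1CKO wounds. Ppbp had at most 1.18 CPM in WT and 8.56 CPM in Col5a1CKO wounds. Csf3r had 25.1, 32.2 and 76.7 CPM in WT wounds, all above the WT median at day 14, and 132, 96.6 and 13.9 CPM in Col5a1CKO wounds. Col5a1CKO replicate c was the lowest of its group for all 8 genes.

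From day 14 to day 19, none of the 8 genes was called lower in either genotype, where 4.25% of 15180 genes in WT and 3.85% of 15327 genes in Col5a1CKO wounds were called lower. In Col5a1CKO wounds all 8 log2 fold changes were negative (median -2.62), 5 had an unadjusted p under 0.05, and DESeq2 called 5 (7.28% of all genes), namely Cxcl2, Cxcl3, Cxcl5, Cxcr2 and Ppbp. All day 19 wounds were in the upper library set, whereas 5 of the 7 at day 14 were in the lower one, and with the set as a covariate the log2 fold change was -0.24 for Cxcl1 in place of -1.86, -0.27 for Cxcl5 in place of -2.45, -0.97 for Ppbp in place of -3.80, -2.59 for Cxcl3 and -3.09 for Cxcr2, with none called. Cxcl3 changed most at -4.47 (SE 1.34, adjusted p = 0.0677), from 64.4 to 1002 CPM at day 14 to 1.26 to 33.2 CPM at day 19. Without Col5a1CKO replicate g of day 14, 3 were called lower, namely Cxcl2, Cxcl3 and Cxcl5 (7.18% of all genes). In WT wounds the member with an unadjusted p under 0.05 was Cxcr2, which DESeq2 also called beside 8.05% of all genes, with 17.7 to 57.7 CPM at day 14 and 4.05 to 12.2 CPM at day 19 (log2 fold change -1.89, SE 0.53, adjusted p = 0.0573). Within the upper library set Cxcr2 was called lower (-1.42, adjusted p = 0.0370) and Csf3r was called higher (2.16, adjusted p = 0.04997) at day 19 in WT wounds, where 10.1% of all genes were called lower and 14.2% higher. These comparisons share their groups with those between genotypes. Sex was unbalanced between the days as well. The upper-set WT wounds of day 14 all carried RNA of Y-linked genes, whereas WT replicates b and c of day 19 carried Xist RNA (703 and 593 CPM). Col5a1CKO replicates a to d of day 14 carried RNA of Y-linked genes, whereas all Col5a1CKO wounds of day 19 carried Xist RNA. Any part of sex was not tested.

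The genotype by day interaction, the test of whether the genotype difference changed between the days, was called for none of the 8 genes and for 0% of 15954 genes with edgeR. DESeq2 called 0 of the 8, and over all genes it called 24 higher and 17 lower. At an unadjusted p under 0.05 there was 1 member, Csf3r, with an interaction of -2.62 on the log2 scale (SE 1.14, adjusted p = 0.762).

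The make-up of the ligand mRNA was compared per transcript length, as RPKM (CPM per kb), in the first table, which gives lengths. The summed RPKM of the 5 ligands was between 4.32 and 1240 in WT and between 171 and 3540 in Col5a1CKO wounds at day 14. Cxcl2 was the largest contributor in 4 of 7 WT and 5 of 7 Col5a1CKO wounds, with a median share of 49.9% in WT and 41.6% in Col5a1CKO wounds at day 14. In WT replicates c, d and g Cxcl2 made up 83.6%, 83.5% and 83.9% of the sum.

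Cxcl5 took a different share in wounds with similar Cxcl2. WT replicates c and d, with summed RPKM of 1240 and 610, held 0.308% and 0.235% Cxcl5, whereas in the Col5a1CKO wounds at day 14 its share was 3.94% to 40.2% with a median of 14.3%. High shares of Cxcl5, 34.0% and 50.7%, were also found in WT replicates a and b, whose ligand sums were low at 5.95 and 30.4 RPKM. At day 19 the shares of Cxcl5 were 12.6%, 0.0590% and 9.85% in WT and 28.8%, 29.5% and 37.3% in Col5a1CKO wounds, and those of Cxcl1 were 17.7%, 3.24% and 9.42% against 26.4%, 33.9% and 49.7%. At day 19 the genotypes did not overlap for either share, both higher in Col5a1CKO wounds. Nor did they overlap for Cxcl2 (8.06% to 27.8% against 49.9% to 79.8%) and Cxcl3 (3.45% to 13.8% against 15.5% to 21.4%), both lower. Shares of the same sum depend on each other, so these are not separate findings. These shares were looked at after the levels were seen and are given as a description.

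**Figure D2:**
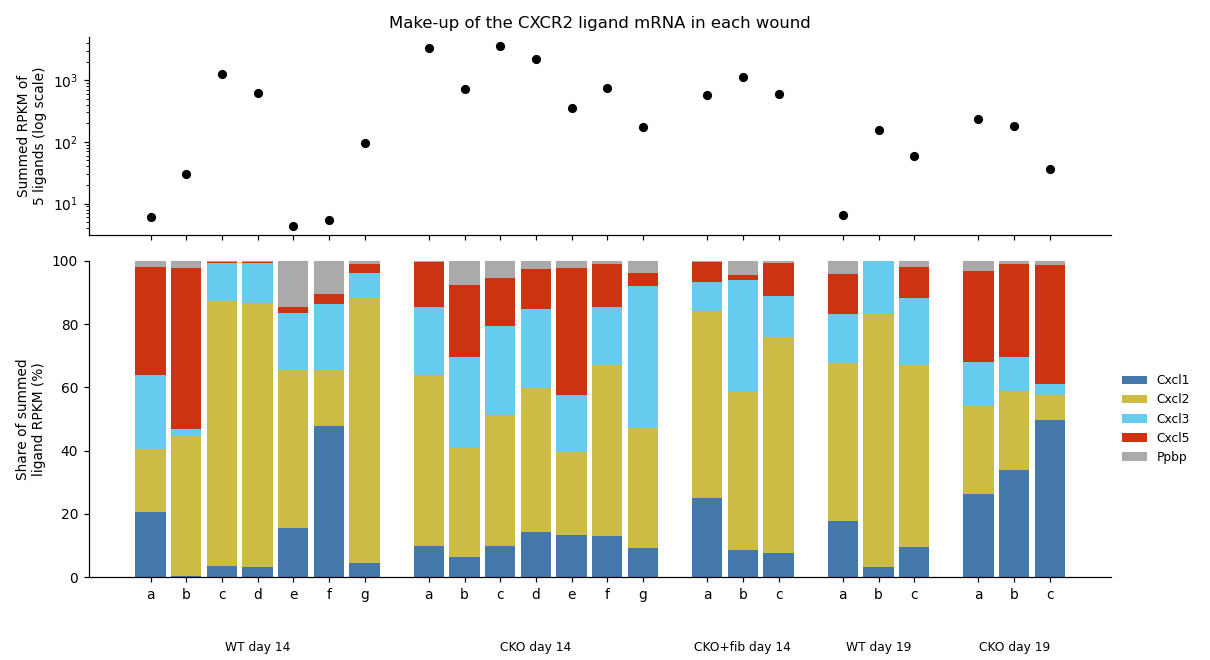
Upper panel, the summed RPKM of the 5 CXCR2 ligands in each wound of the first table on a log axis. Lower panel, the percent of that sum contributed by each ligand, with letters for replicates. Cxcl2 dominates WT replicates c, d and g at day 14, and Cxcl1 and Cxcl5 take larger shares in the CKO wounds at day 19 than in the WT wounds.

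Both receptors are carried by neutrophils, and their levels were set against each other in each wound. At day 14 the ratio of Csf3r to Cxcr2 RPKM was between 0.176 and 0.731 in WT and between 1.04 and 1.47 in Col5a1CKO wounds, without overlap. The mean difference of the log2 ratio was 1.61. In the second table the ratio of CPM was between 0.233 and 0.679 in WT and between 1.46 and 1.93 in Col5a1CKO vehicle wounds (difference 2.17). With cilengitide it was 1.13 to 1.94 in Col5a1CKO wounds, overlapping those with vehicle.

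At day 19 the order was not the same. The RPKM ratio was between 2.05 and 7.997 in WT and between 2.30 and 3.37 in Col5a1CKO wounds, and in both genotypes it was above every wound of the same genotype at day 14. The Col5a1CKO wounds with fibroblasts had 1.18 to 1.55. This ratio was chosen after the levels of both receptors had been seen, so it is given as a description without a p-value. The part of cell makeup in it was not tested.

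**Figure D3:**
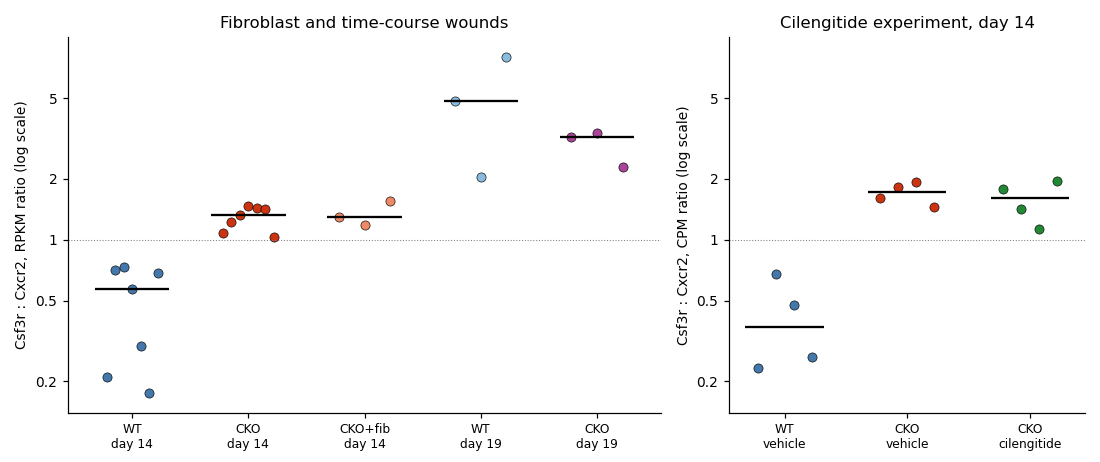
Ratio of Csf3r to Cxcr2 in each wound on a log axis, per transcript length in the first table (left) and as CPM in the second (right), with black lines for group medians and a dotted line at 1. WT wounds lie below the dotted line at day 14 in both tables (0.176 to 0.731 and 0.233 to 0.679) and above it at day 19 (2.05 to 7.997).

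Col5a1CKO wounds injected with WT fibroblasts were compared with Col5a1CKO wounds without injected fibroblasts at day 14. None of the 8 genes was called, and 0% of 15659 genes were called lower. At an unadjusted p under 0.05 there was 1 member, Cxcl5, and DESeq2 called 0. Cxcl5 had 59.6, 28.5 and 101 CPM with fibroblasts and a median of 268 CPM without. All 3 wounds were below 6 of the 7 wounds without injected fibroblasts (log2 fold change -2.69, SE 1.07, adjusted p = 0.365).

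The receptors pointed the other way. Csf3r had 398, 416 and 367 CPM with fibroblasts, above 5 of the 7 Col5a1CKO wounds without them (log2 fold change 0.84, adjusted p = 0.539). Cxcr2 had 240, 275 and 184 CPM with fibroblasts (0.79, adjusted p = 0.565). The ligands Cxcl1, Cxcl2, Cxcl3 and Ppbp and the growth factor Csf3 had log2 fold changes of -0.69 to -1.36. All 3 fibroblast wounds were in the upper library set, and within that set, against Col5a1CKO replicates f and g, these 5 genes turned to 0.20 to 1.53 and Cxcl5 went to -0.44, with no member called. The summed neutrophil markers were 8711 to 10340 CPM with fibroblasts, again mostly S100a8 and S100a9 (means of 2692 and 5407 CPM).

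Against WT wounds of day 14, the fibroblast-injected wounds were higher in Cxcr2 (log2 fold change 3.12, SE 0.36, adjusted p = 0.000964) and Csf3r (4.46, SE 0.62, adjusted p = 0.00248), where 3.77% of 15316 genes were called higher. All 8 log2 fold changes were positive, with a median of 3.43 beside 0.03 over all genes. Within the upper set, 7 were called (all but Cxcl2), where 19.8% of genes were called higher. Without WT replicate c, 5 were called, with Cxcl1, Ppbp and Csf3 added (3.93% of all genes). All 3 fibroblast-injected wounds carried Xist RNA and the 3 upper-set WT wounds carried RNA of Y-linked genes, so sex and group cannot be told apart within that set. In the comparison with all WT wounds, 3 of 13 neutrophil markers (median log2 fold change 3.02), 7 of 10 neutrophil adhesion genes and 4 of 8 macrophage markers were also called higher, and their part was not tested. The same WT and Col5a1CKO wounds serve as controls in these comparisons and in that between genotypes.

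With vehicle, all 8 genes were called higher in 4 Col5a1CKO than in 4 WT wounds, where 17.5% of 15434 genes were called higher. For each of the 8, every Col5a1CKO wound was above every WT wound, which held for 24.1% of the 13911 genes that averaged 1 CPM or more. The median log2 fold change was 6.36, beside 0.02 over all genes tested. These wounds were counted in a separate table from those above. WT vehicle replicates 1 and 3 carried Xist RNA (135 and 172 CPM), whereas Col5a1CKO vehicle wounds had at most 1.27 CPM. Sex was thus unbalanced between these groups, and any part of it was not tested.

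Cxcl3 changed most among the ligands. It had 1.19, 4.21, 2.46 and 0.911 CPM in WT and 244, 38.2, 2064 and 2558 CPM in Col5a1CKO vehicle wounds (log2 fold change 9.10, SE 1.57, adjusted p = 0.00314). Cxcl2 had 3.39, 40.2, 21.4 and 4.32 CPM in WT and 322, 72.7, 4234 and 6140 CPM in Col5a1CKO wounds (7.25, SE 1.74, adjusted p = 0.0112). Col5a1CKO replicates 3 and 4 stood far above replicates 1 and 2 for both ligands.

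Cxcl5 had another order among the same wounds. It had 1.40, 9.81, 0.492 and 0.447 CPM in WT and 410, 168, 273 and 41.3 CPM in Col5a1CKO vehicle wounds, so that replicate 4, highest for Cxcl2 and Cxcl3, was lowest for Cxcl5. Its log2 fold change was 6.17 (SE 1.36, adjusted p = 0.00789). Cxcl1 had 2.71, 3.87, 2.35 and 0.393 CPM in WT and 119, 80.5, 418 and 270 CPM in Col5a1CKO wounds (6.55, SE 0.90, adjusted p = 0.00143). Ppbp had 0.546 to 1.02 CPM in WT and 16.0, 6.06, 19.6 and 103 CPM in Col5a1CKO wounds (5.53, SE 0.95, adjusted p = 0.00305).

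Csf3 and Cxcr2 followed the order of Cxcl2 among the Col5a1CKO wounds. Csf3 had 0.0314, 2.57, 0.2003 and 0.0357 CPM in WT and 40.5, 12.3, 128 and 144 CPM in Col5a1CKO vehicle wounds (log2 fold change 6.81, SE 1.64, adjusted p = 0.0115). Csf3r had between 2.77 and 21.2 CPM in WT and between 151 and 1012 CPM in Col5a1CKO wounds (5.82, SE 0.90, adjusted p = 0.00212), and Cxcr2 had 10.5 to 31.2 CPM and 82.7 to 569 CPM (3.93, SE 0.66, adjusted p = 0.00282). Col5a1CKO vehicle replicate 2 was the lowest of its group for all members except Cxcl5, and all 8 stayed called without it.

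Marker RNA again moved with the chemokines. The summed neutrophil markers were between 166 and 2256 CPM in WT and between 1774 and 48710 CPM in Col5a1CKO vehicle wounds. S100a8 and S100a9 made up most of it, with means of 6297 and 10500 CPM in Col5a1CKO vehicle wounds. Of the 13 neutrophil markers tested, 12 were called higher (median log2 fold change 5.25). All 8 macrophage markers were called higher, and the summed keratinocyte markers were 67720 to 104800 CPM against 75.4 to 16610 CPM, with Krt1, Krt5 and Krt10 called lower. Cxcr1, a further receptor of this family, was called higher as well (7.30, SE 1.20, adjusted p = 0.00266). Their part in the chemokine differences was not tested.

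Of the 16 upstream cytokines and receptors tested, 12 were higher and 1 was lower with vehicle. Il17f, Il6 and Il17a led them, with log2 fold changes of 6.35 (SE 0.74), 6.35 (SE 0.77) and 7.01 (SE 1.0) and adjusted p from 0.00094 to 0.00163. Il1b had between 5.501 and 94.5 CPM in WT and between 618 and 10440 CPM in Col5a1CKO vehicle wounds. Among the 13 NF-κB and mRNA decay genes, 9 were higher, and Traf3ip2, the adaptor of the IL-17 receptor, was lower (-1.39, SE 0.15, adjusted p = 0.000706).

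**Figure D4:**
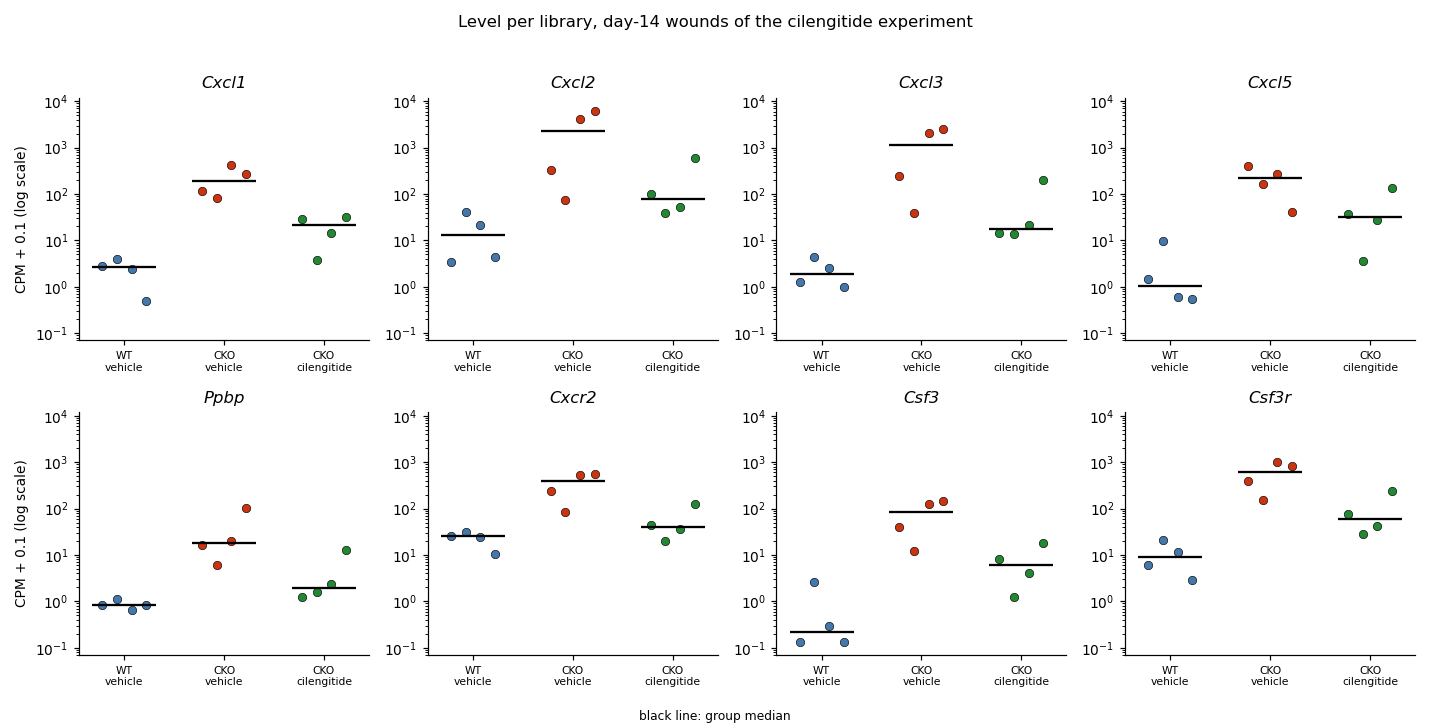
Level of each of the 8 genes in every wound of the cilengitide experiment, as CPM + 0.1 on a log axis, for WT vehicle, CKO vehicle and CKO cilengitide wounds at day 14, with 4 wounds each. Black lines are group medians. Every CKO vehicle wound lies above every WT vehicle wound, and the cilengitide wounds lie mostly between them.

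Cilengitide was compared with vehicle in Col5a1CKO wounds. Cilengitide replicates 2 and 3 carried Xist RNA (186 and 139 CPM), whereas Col5a1CKO vehicle wounds had at most 1.27 CPM. Sex was therefore unbalanced between these groups too, and its part was not tested. Cxcl1, Cxcr2 and Csf3 were called lower with cilengitide, where 6.59% of 15563 genes were called lower, and all 8 log2 fold changes were negative with a median of -3.24, beside -0.06 over all genes. Cxcl1 had 29.4, 3.78, 14.0 and 32.5 CPM with cilengitide, each below the lowest vehicle wound at 80.5 CPM, a separation that 13.8% of genes averaging 1 CPM or more showed in this direction (log2 fold change -3.50, SE 0.80, adjusted p = 0.0201). Cxcr2 had 43.5, 19.9, 37.0 and 123 CPM (-2.69, SE 0.76, adjusted p = 0.0379) and Csf3 had 8.03, 1.12, 4.03 and 18.4 CPM (-3.39, SE 1.03, adjusted p = 0.0469), and for each of these 2 genes only cilengitide replicate 4 lay above vehicle replicate 2.

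The other 5 members fell short of the threshold. Cxcl2 had 103, 38.3, 52.4 and 590 CPM with cilengitide (-3.80, SE 1.53, adjusted p = 0.103), and Cxcl3 had 14.1, 13.6, 21.1 and 196 CPM (-4.35, SE 1.54, adjusted p = 0.0726). Cxcl5 had 37.1, 3.47, 27.2 and 132 CPM and the smallest change among the ligands (-2.17, SE 1.04, adjusted p = 0.159). Ppbp had 1.15, 1.46, 2.24 and 12.4 CPM (-3.08, SE 1.14, adjusted p = 0.0815), and Csf3r had 77.7, 28.0, 41.9 and 240 CPM (-2.64, SE 0.85, adjusted p = 0.0551). Cilengitide replicate 4 was the highest of its group for all 8 genes.

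The number of calls depended on single wounds. Without cilengitide replicate 4 there were 6 calls and without vehicle replicate 2 there were 5, where 5.74% and 8.99% of all genes were called lower. Without cilengitide replicate 3 there were 0 (2.2% of all genes), and without any of the other 5 wounds there was 1, Cxcl1 (2.12% to 6.87%). DESeq2 called 7 members lower, all but Cxcl5, beside 8.93% of all genes.

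Some upstream genes were lower with cilengitide as well. Of 16 upstream cytokines and receptors tested, 7 were called lower and 1 higher with cilengitide, led by Il17f (log2 fold change -5.23, SE 0.55, adjusted p = 0.00279) and Il17a (-4.91, SE 0.88, adjusted p = 0.0102), and the gene that rose was Il17rc. Of the NF-κB and mRNA decay genes 6 of 13 were lower, including Cebpd, Relb and Nfkb2, and of the neutrophil adhesion genes 6 of 10 were lower. Of 14 other CXC genes tested, 3 were lower, Cxcl10, Pf4 and Cxcr4.

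Neutrophil markers summed to 3311 to 7632 CPM with cilengitide, inside the range with vehicle, a sum carried largely by S100a8 and S100a9 (means of 2164 and 2772 CPM). Of the 14 tested, 12 had negative log2 fold changes (median -3.07) and 3 were called lower, Ngp, Mmp8 and Fpr2. The sum thus does not reflect most of these markers. Mmp8, for example, had a median of 172 CPM with vehicle and 8.425 CPM with cilengitide. Keratinocyte markers summed to 40920 to 78520 CPM with cilengitide, each wound above every Col5a1CKO vehicle wound, with Krt10 and Krt1 called higher. Macrophage markers summed to 778 to 1185 CPM against 1903 to 5859 CPM with vehicle, with 3 of 8 called lower. The part of cell makeup was not tested here either.

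Against WT vehicle wounds, the cilengitide wounds stayed higher in Cxcl1 (log2 fold change 3.11, SE 0.82, adjusted p = 0.0360), Cxcl3 (4.80, SE 1.13, adjusted p = 0.0282) and Csf3r (3.23, SE 0.87, adjusted p = 0.0381), where 5.15% of 15514 genes were called higher. All 8 log2 fold changes were positive, and Cxcr2 had the smallest (1.29, SE 0.57, adjusted p = 0.129). Without WT vehicle replicate 2 there were 5 calls (7.56% of all genes called higher) and without cilengitide replicate 1 there were 2 (3.72%). Without any of the other 6 wounds there were 0. Without cilengitide replicate 2, 3 or 4, calls over all genes also dropped to 0.00635% to 0.0191%, so those counts of 0 are no result about the members. Without WT vehicle replicate 3 or 4 they dropped to 0.551% and 1.82%. Without WT vehicle replicate 1, 4.54% of all genes were still called higher. The member calls thus depended on that wound, with edgeR adjusted p of 0.0619 for Cxcl1, 0.0544 for Cxcl3 and 0.0716 for Csf3r. Markers moved with the members in this comparison, with 7 of 13 neutrophil markers (median log2 fold change 3.27), 8 of 10 neutrophil adhesion genes and 4 of 8 macrophage markers called higher. The part of these markers was not tested. The vehicle wounds are shared with the comparisons above.

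**Figure D5:**
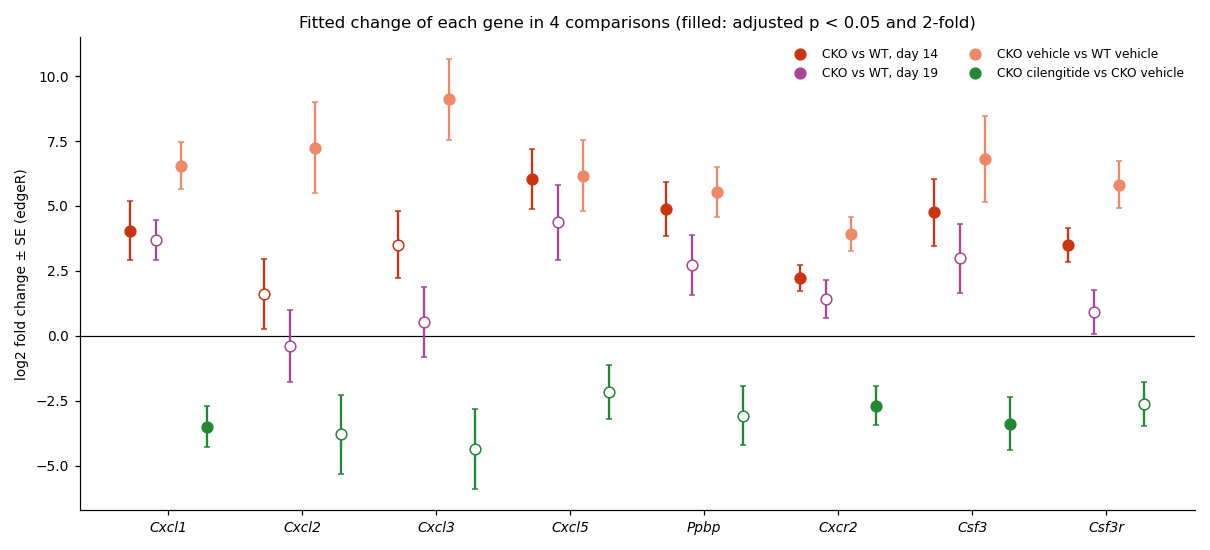
Fitted log2 fold change (edgeR) with its SE for each of the 8 genes in 4 comparisons, filled where the adjusted p was under 0.05 and the change at least 2-fold. The vehicle comparison is filled for all 8 genes (3.93 to 9.10), the day 19 comparison is open for all, and the cilengitide comparison lies below 0 for all 8 (-4.35 to -2.17).

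Across wounds the members varied together. Over the 23 wounds of the first table, Spearman's rho between pairs of members ranged from 0.60 to 0.93 over 28 pairs, with a median of 0.80. The highest was between Cxcl1 and Csf3 (0.93), followed by Cxcl2 and Cxcl3 (0.91), and the lowest was between Cxcl2 and Cxcl5 (0.60). Over the 12 wounds of the second table the range was 0.85 to 0.99. These values describe wounds that share group, depth and cell makeup, and are not tests.

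The genes whose CPM ranked most like each member were read from 14353 genes in the first table and 13887 in the second. Cxcl1 was most like Pde4b (0.963), Inhba (0.932) and Csf3, itself a member. Cxcl2 was most like Ccl3 (0.972), Ccl4 (0.971) and Ptgs2 (0.957), which encode macrophage inflammatory proteins and cyclooxygenase-2, and Ccl4 was also among its 3 most alike genes in the second table (0.993). Cxcl3 was most like Olfm4, Clec4e and Il1b (0.936 to 0.939).

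Cxcl5 had other neighbours. It was most like Slc25a24 (0.928), Ccl7 (0.924) and Fgf7 (0.916), the last a fibroblast growth factor that acts on keratinocytes, and in the second table like Csgalnact1, Serpina3g and Grem1 (0.986 to 0.993). Ppbp was most like Tgoln2, Slc25a24 and Msr1 (0.873 to 0.900) in the first table. Cxcr2 was most like Stx11, Slpi and Cd244 (0.920 to 0.927), Csf3r like Gsr, Adam8 and Cd300lf (0.947 to 0.958), and Csf3 like Cxcl1, Klhl2 and Nrg1 (0.917 to 0.930). With 12 wounds in the second table, rank correlations up to 1.0 were reached, such as Fpr2 with Cxcl3, Hdc with Csf3 and Mefv with Csf3r.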

How the data were processed

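RNA-seq counts of 35 wounds were used. The authors deposited raw counts per RefSeq transcript for the fibroblast and time-course wounds, with transcript lengths as a further column, and raw counts per symbol for the cilengitide wounds. The methods describe stranded single-end reads aligned with HISAT2 to NCBI37/mm9, each read once, and counted on exons in SeqMonk, and whether this covers the cilengitide table is not given in the sources used here. Rows with no gene name (0.0492% and 5.91e-05% of counts) were left out, and the row with the largest total was kept per symbol. Reads that could come from more than 1 of the related ligand genes may have been counted for either.

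Groups came from titles and labels. Each pair of groups was fitted alone in edgeR 4.0.16 (R 4.3.3; TMM, genes kept by filterByExpr at a count of 10, robust quasi-likelihood test), with Benjamini-Hochberg adjustment over all genes tested and a call at adjusted p under 0.05 and at least 2-fold. Scripts were tested on simulated data. DESeq2 1.42.0 was an alternative. RPKM here is TMM-normalized CPM per kb of the deposited length. Library sets were separated where wounds lay farthest apart in GC-rich minus GC-poor genes (the upper and lower 10% of genes by GC content, among those averaging 5 CPM or more, with GC from GENCODE transcripts of the NCBI37 build). Figures were drawn with matplotlib 3.10.9 in Python 3.11.15.

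The members and lists were chosen with earlier results of these data known. Named genes are the members, Col5a1, up to 3 called genes per list and comparison with the smallest adjusted p, and the 3 genes most like each member. Exceptions chosen after their values were seen are the levels of Il1b, Krt14, Elane, Mpo, S100a8 and S100a9. Precision rests on the counts per wound and on the number of wounds, and limits from counts of 0 cover counting error only.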

Additional observations from a re-analysis of the deposited data

Results flagged for a closer look

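Over 40 groups of 4 or 7 wounds (the 8 members in each group of that size), 3 held a wound that stood apart from the rest by the gap to its nearest neighbour relative to the range of the group on the log2(CPM + 1) scale, where chance alone gives about 1 in 20. Cxcl3 was at 196.1 CPM in cilengitide replicate 4, above 13.6 to 21.1 CPM in the other cilengitide wounds (gap 0.840 of the range). Cxcl5 was at 11.16 CPM in Col5a1CKO replicate g at day 14, below 166 to 888 CPM in the others (0.610). Csf3 was at 2.568 CPM in WT vehicle replicate 2, above 0.0314 to 0.2003 CPM in the others (0.878).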

How the results depend on the processing

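Log2 fold changes of the members kept their sign under every alternative in all comparisons except the 3 named here. For Col5a1CKO wounds with against without injected fibroblasts, signs turned with the library set as a covariate and within the upper set. Cxcl1 went to 0.80 and 0.84, Cxcl2 to 0.91 and 0.95, Cxcl3 to 0.72 and 0.76, Ppbp to 1.5 and 1.53, and Csf3 to 0.15 and 0.20. For WT wounds at day 19 against day 14, both settings gave 0.77 for Cxcl1, 1.06 for Cxcl2, 2.19 for Cxcl3 and 1.42 for Cxcl5, and Csf3 turned to 1.07 and 1.08, to 0.0023 with RLE size factors and to 0.43 with library size only. When 1 wound was left out, Csf3 ranged from -1.86 to 1.11 and Cxcl5 from -2.93 to 0.48 in that comparison, and between genotypes at day 19 Cxcl2 ranged from -1.05 to 1.05 and Cxcl3 from -0.26 to 1.41. The cause was not tested.

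The number of members called moved more. For genotypes at day 14 (6) it was 1 within the lower and 1 within the upper library set, and 4 to 7 with 1 wound left out. At day 19 (0) it was 2 with DESeq2, 2 with unadjusted p and 0 with any wound left out. For Col5a1CKO wounds with against without injected fibroblasts (0) it was 1 with unadjusted p. For fibroblast-injected against WT wounds (2) it was 6 with DESeq2, 6 with all groups in one fit and 6 with unadjusted p. It was also 5 with the library set as a covariate, 7 within the upper set and 2 to 5 with 1 wound left out. Between days, WT wounds (0) gave 1 with DESeq2, 2 within the upper set and 1 with unadjusted p, and Col5a1CKO wounds (0) gave 5 with DESeq2, 1 with all groups in one fit, 5 with unadjusted p and 0 to 3 with 1 wound left out. For cilengitide against vehicle (3) it was 7 with DESeq2, 5 with all groups in one fit, 7 with unadjusted p and 0 to 6 with 1 wound left out, and against WT vehicle (3) it was 7, 0, 7 and 0 to 5 in the same order. The interaction (0) gave 1 with unadjusted p. Between genotypes with vehicle, 8 were called under every alternative, left-out wounds included. Over all genes at day 19, edgeR called 3 higher and DESeq2 called 708 higher and 782 lower.

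The labels do not say whether the letters in the titles pair the wounds, and the main fits treated them as unpaired. Deviations of same-lettered wounds from their group means were correlated between genotypes. The correlations ran from -0.395 to 0.483 at day 14 and from -0.417 to -0.325 at day 19. Such values cannot settle whether wounds were paired by litter or by day of handling. With the letter as a replicate block, 7 members were called at day 14 (4.86% of all genes called higher) and 0 at day 19. For Col5a1CKO wounds with against without injected fibroblasts 1 was called, Cxcl5 (-3.38, adjusted p = 0.0155). There, genes called lower over the table rose from 0% to 7.15%. That fit kept only letters a, b and c, which both groups share. Those wounds were all in the lower library set without fibroblasts and all in the upper set with them. Fibroblast injection and library set thus cannot be told apart in that fit. For fibroblast-injected against WT wounds 2 were called (9.75% of all genes called higher). The same letters were kept there, and the WT wounds a to c were all in the lower set, so group and library set cannot be told apart there either. Not every wound correlated positively with its own letter. No paired analysis was possible for the cilengitide wounds because their titles carry no shared numbering.

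Levels below about 1 CPM rest on few counts in the first table, which limits Csf3 and Ppbp in WT wounds. It also limits the lowest WT levels of Cxcl1, Cxcl3 and Cxcl5. At day 14, for example, Cxcl5 had 3 and 9 counts in WT replicates e and f, and Cxcl1 had 2 in WT replicate b. Day 19 groups and the fibroblast group held 3 wounds each.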
